A study of Homo sapiens with 4 samples.

Results

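The kynurenine and de novo NAD genes are the 10 genes of the route from tryptophan to NAD+ that were looked up in the deposited expression table by Ensembl identifier: IDO1, TDO2, AFMID, KMO, KYNU, HAAO, QPRT, NADSYN1, ACMSD and KYAT3. All 10 were found among the 50653 genes of the table. Of these, 6 (QPRT, KYNU, KMO, AFMID, NADSYN1 and KYAT3) had a mean of at least 1 FPKM over the libraries and entered the comparisons across 14321 genes, while IDO1, TDO2, HAAO and ACMSD stayed below that level and are described by their fragments. FPKM are fragments per kilobase of transcript, scaled to the mapped fragments of the library, so that levels of different genes can be set beside each other per length.

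RNA was sequenced from 2 human triple-negative breast cancer cell lines, BT-20 and MDA-MB-468 (written MB-468 in the labels). Each line carried a lentiviral vector with either a control short hairpin RNA (shRNA) or an shRNA against QPRT, and all 4 cultures had gone through puromycin selection. The paper names the backbone pLKO.1-puro for the QPRT shRNA and calls that of the control a lentiviral vector. There was 1 library for each line and shRNA, the identity of the hairpin was not stated, and nothing in the sources describes a second hairpin or a rescue. The lines were grown in different media (Eagle's minimum essential medium for BT-20, Leibovitz's L-15 for MDA-MB-468), so line and medium cannot be told apart. The library totals behind the FPKM lay between 10321995 and 10945948 fragments, as inferred from the spacing of the FPKM values and not as reported. The 6 epithelial markers examined (EPCAM, KRT8, KRT18, KRT19, CDH1 and EGFR) were all at 5 FPKM or more in every library. Of the receptors whose protein defines the triple-negative class, PGR was listed at 0 in all 4 libraries, ESR1 lay between 1.05 and 5.76 FPKM and ERBB2 between 50.7 and 129 FPKM, so the ERBB2 transcript was present in both lines.

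In the kynurenine pathway a dioxygenase (IDO1 or TDO2) opens the indole ring of tryptophan, AFMID releases kynurenine, KMO hydroxylates it, KYNU cuts the side chain to give 3-hydroxyanthranilate, and HAAO opens that ring to give the unstable intermediate ACMS. ACMS closes to quinolinate without an enzyme unless ACMSD diverts it, and QPRT joins quinolinate to a phosphoribosyl group to give nicotinic acid mononucleotide (NAMN), which the NMNAT enzymes and NADSYN1 turn into NAD+. KYAT3 draws kynurenine off to kynurenic acid, and the whole route is known best from liver, kidney and myeloid cells.

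The upstream regions of 3 members are shown because QPRT is the gene the hairpin targets, KYNU is the member that differed most in its response between the lines, and HAAO is the step just before quinolinate that was close to undetected in both lines. The letters are from the 250 bases before the RefSeq transcription start on GRCh38.p14, 5′ to 3′ on the gene's own strand. They are limited to the longest run outside every GENCODE 29 exon, and capitals mark TATAAA and GGGCGG on either strand. The KYNU and HAAO letters therefore stop short of the start, and the KYNU window runs on to 142877663. The KYNU capitals lie 250 to 245 bases before the start. Its other TATAAA matches, at 68 to 63 and 66 to 61 bases, are not printed.
QPRT, chr16:29678758-29679007, plus strand: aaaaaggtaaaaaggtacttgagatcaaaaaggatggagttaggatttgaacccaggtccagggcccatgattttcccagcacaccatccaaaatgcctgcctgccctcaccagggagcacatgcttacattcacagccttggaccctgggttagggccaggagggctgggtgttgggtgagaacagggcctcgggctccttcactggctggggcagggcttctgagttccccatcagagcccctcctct
KYNU, chr2:142877414-142877497, plus strand: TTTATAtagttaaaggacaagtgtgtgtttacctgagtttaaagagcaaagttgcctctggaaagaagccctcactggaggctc
HAAO, chr2:42792594-42792833, minus strand: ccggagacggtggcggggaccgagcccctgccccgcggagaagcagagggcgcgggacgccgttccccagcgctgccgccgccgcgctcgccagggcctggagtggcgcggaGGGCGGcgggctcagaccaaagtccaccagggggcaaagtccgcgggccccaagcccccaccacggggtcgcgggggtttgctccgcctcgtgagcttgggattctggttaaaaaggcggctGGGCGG
Over the full 250 bases before the start, QPRT and KYNU each held 1 CpG and HAAO held 30, against a median of 11 over 35116 such windows. A further RefSeq start of QPRT, whose window held 2 CpG, is not shown. TATAAA was in the KYNU window and in 10.7% of all windows, and GGGCGG was in the HAAO window and in 42.6% of all. CCAAT, found in 32.0% of windows, was also in the KYNU window, and TGACTCA, found in 4.20%, was in none of the 3. These matches are letters only and say nothing on binding in these cells.

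The first question was which steps of the route the cells expressed at all. In both lines the transcripts of the first step (IDO1 and TDO2), of HAAO and of the ACMSD side branch were at the edge of detection, whereas AFMID, KMO, KYNU, QPRT, NADSYN1 and KYAT3 were detected in every library. QPRT stood at the top of the members in both control libraries.

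IDO1, the interferon-inducible tryptophan dioxygenase, was at 0.0899 FPKM (1 fragment) in BT-20 with control shRNA and 0.175 FPKM (2 fragments) in BT-20 with QPRT shRNA. It had 0 fragments in both MDA-MB-468 libraries, which allows a level of up to 0.262 FPKM with control shRNA and 0.278 FPKM with QPRT shRNA (3 fragments). TDO2, the dioxygenase characteristic of liver, had 1, 2, 0 and 2 fragments in BT-20 with control shRNA, BT-20 with QPRT shRNA, MDA-MB-468 with control shRNA and MDA-MB-468 with QPRT shRNA. The corresponding levels were 0.0863, 0.168, 0 and 0.178 FPKM, and the count of 0 allows up to 0.251 FPKM. No difference between lines or shRNAs could be detected at such counts for either dioxygenase.

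HAAO was at 0.187 FPKM with control shRNA and 0.182 FPKM with QPRT shRNA in BT-20, 2 fragments in each library. In MDA-MB-468 it was at 0.727 and 0.771 FPKM, 8 fragments in each. Both MDA-MB-468 libraries therefore lay above both BT-20 libraries, and summed over the shRNAs the 16 fragments against 4 gave a ratio of 4.05 (exact 95% interval 1.31 to 16.6). Intervals here and below are Clopper-Pearson intervals and cover counting error only. ACMSD, which diverts ACMS away from quinolinate, had 1, 1, 0 and 2 fragments in the same order of libraries (0.0740, 0.0720, 0 and 0.152 FPKM), and its count of 0 allows up to 0.215 FPKM.

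How many steps are called silent depended on the limit. With a limit of 0.1 FPKM in both libraries of a line, ACMSD counted as silent in the BT-20 pair and IDO1 in the MDA-MB-468 pair, so that 1 of the 9 steps (the side branch) was silent for BT-20 and 0 for MDA-MB-468, where TDO2 still gave 2 fragments. HAAO, IDO1 and TDO2 in BT-20 and HAAO, TDO2 and ACMSD in MDA-MB-468 were low, that is not silent but not at 1 FPKM in both libraries. With a limit of 0.5 FPKM, 4 members (HAAO, IDO1, TDO2 and ACMSD) and 3 steps were silent in BT-20. These were tryptophan to formylkynurenine as far as IDO1 and TDO2 carry it, 3-hydroxyanthranilate to ACMS, and the side branch. The step calls leave out IDO2, another dioxygenase, which is no member and had 20 and 9 fragments in BT-20 (0.799 and 0.350 FPKM), so that this step was not silent in the BT-20 control library once IDO2 is counted. At the same limit 3 members (IDO1, TDO2 and ACMSD) and 2 steps were silent in MDA-MB-468. With a limit of 10 fragments in each library, the same 4 members and, again without IDO2, 3 steps were silent in both lines. Since IDO1, TDO2 and ACMSD never had more than 2 fragments in a library, the order of IDO1, TDO2 and ACMSD among themselves was not resolved at this depth.

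**Figure D1:**
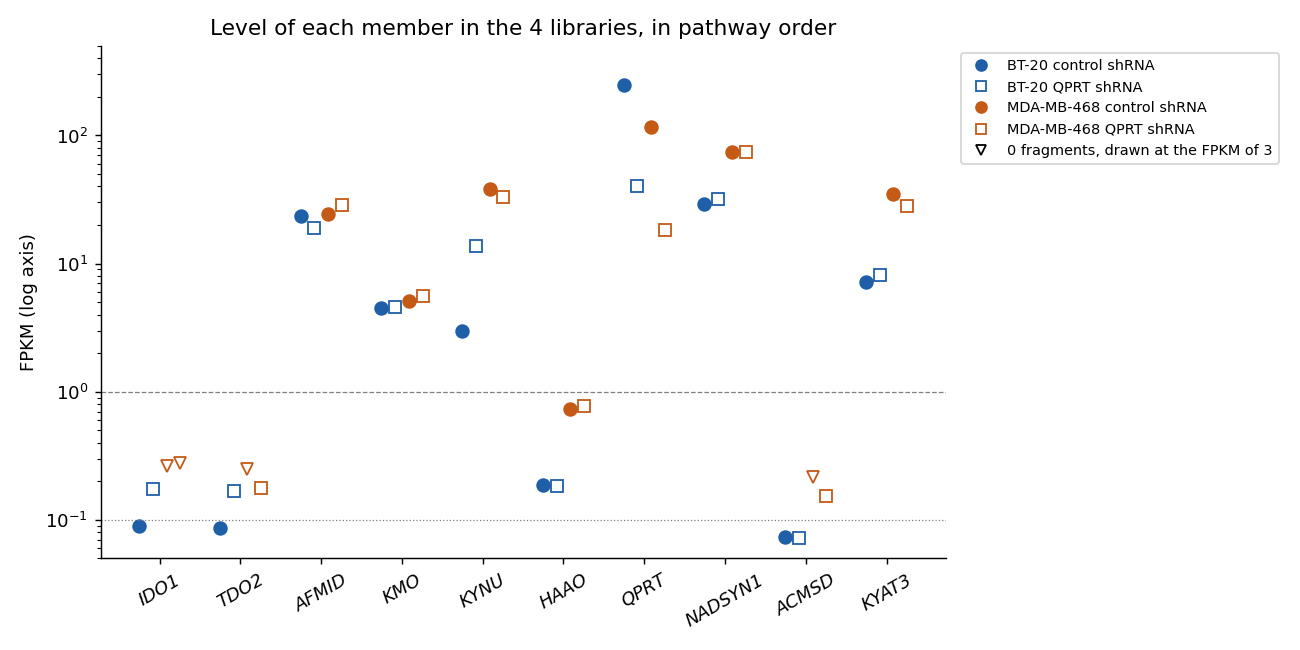
FPKM (log axis) of the 10 members in the 4 libraries, from the first step on the left to the side branches on the right; filled circles are control shRNA, open squares QPRT shRNA, and downward triangles libraries with 0 fragments, drawn at the FPKM of 3 fragments. The dashed line is 1 FPKM and the dotted line 0.1 FPKM. IDO1, TDO2, HAAO and ACMSD stay under 1 FPKM in all libraries, QPRT is highest in both control libraries, and KYNU is the member whose BT-20 points lie farthest apart upwards.

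With control shRNA in BT-20 the detected members ranked QPRT, NADSYN1, AFMID, KYAT3, KMO and KYNU by FPKM. For the MDA-MB-468 control library the order was QPRT, NADSYN1, KYNU, KYAT3, AFMID and KMO. With QPRT shRNA, QPRT kept the first place in BT-20 (40.5 against 32.0 FPKM of NADSYN1) and was the fifth of the 6 in MDA-MB-468. In that library AFMID (28.4 FPKM) and KYAT3 (28.2 FPKM) were next to each other, but KYAT3 shares exon sequence with RBMXL1, so their order is uncertain.

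The second question was what the QPRT shRNA did to the route within each line. QPRT itself was lower with QPRT shRNA in both lines by a similar factor, KYNU was higher for BT-20 and not for MDA-MB-468, and the other 4 detected members differed by less than 2-fold in either line. QPRT fell from 248.6 FPKM (3985 fragments) to 40.5 FPKM (667 fragments) in BT-20. In MDA-MB-468 it fell from 117.3 FPKM (1938 fragments) to 18.3 FPKM (285 fragments). The residual transcript in BT-20 with QPRT shRNA was thus still above the level of 18.3 FPKM in the other silenced line and well above those of KMO or HAAO.

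On the log2(FPKM + 1) scale QPRT differed by -2.59 for BT-20 and -2.62 for MDA-MB-468. As ratios of fragments it was 6.14-fold lower for BT-20 (95% interval 5.65 to 6.67) and 6.41-fold lower for MDA-MB-468 (5.66 to 7.29). Among the 14321 genes its difference was the lowest in MDA-MB-468, and only 1 gene was lower in BT-20. The log2 ratio in MDA-MB-468 minus that in BT-20 was -0.06 (95% interval -0.28 to 0.15), so that a difference in the degree of knockdown between the lines was not detectable. As these are bulk libraries, fewer cells with the transcript and less transcript per cell cannot be told apart.

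KYNU, kynureninase, which acts on both kynurenine and 3-hydroxykynurenine, was at 2.995 FPKM (81 fragments) in BT-20 with control shRNA and at 13.7 FPKM (381 fragments) with QPRT shRNA. In MDA-MB-468 it was at 38.0 FPKM (1060 fragments) with control shRNA and 33.0 FPKM (868 fragments) with QPRT shRNA. The difference on the log2(FPKM + 1) scale was 1.88 in BT-20, the sixteenth highest (rank 16) of the genes tested, and -0.20 in MDA-MB-468. Fragments were 4.58-fold higher for BT-20 (95% interval 3.59 to 5.90) and 1.15-fold lower for MDA-MB-468 (1.05 to 1.26). The log2 ratio in MDA-MB-468 minus that in BT-20 was -2.40 (exact conditional interval -2.79 to -2.02, counting error only), with no replicate behind either ratio. The BT-20 level with QPRT shRNA remained below both MDA-MB-468 levels.

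Transcripts of the other line were looked for in each library, since KYNU is higher in MDA-MB-468. Over 31 genes at 20 FPKM or more in both MDA-MB-468 libraries and at most 0.1 FPKM in BT-20 with control shRNA, the BT-20 library with QPRT shRNA held a median of 0.511% of the MDA-MB-468 level. The control library was used to choose these genes and cannot be compared. That share of the MDA-MB-468 level of KYNU is 0.181 FPKM, beside 13.7 FPKM measured in that library. The part of such RNA in the KYNU difference was not tested. In the reverse direction, MDA-MB-468 with QPRT shRNA held a median of 0.0691% of the BT-20 level over 30 genes chosen the same way. Macrophage markers, for a cell type that expresses KYNU strongly, summed to 7.42 FPKM in BT-20 with control shRNA and 6.92 FPKM with QPRT shRNA over 8 genes, with 6 and 5 of them listed at 0. CSF1R made up most of these sums (6.13 and 4.44 FPKM), whereas CD14 was at 1.29 and 2.44 FPKM in BT-20 and at 15.4 and 26.1 FPKM in MDA-MB-468, higher with QPRT shRNA in both lines but not called by limma (adjusted p = 0.642). The part of such cells in the KYNU levels was not tested.

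KMO, the flavin enzyme that hydroxylates kynurenine, was at 4.49 and 4.59 FPKM in BT-20 and at 5.08 and 5.63 FPKM in MDA-MB-468, with control and QPRT shRNA respectively. Its log2 fragment ratio was 0.03 (95% interval -0.43 to 0.50) in BT-20 and 0.15 (-0.28 to 0.58) in MDA-MB-468. The 4 levels lay within 78 to 95 fragments, and the intervals leave room for a level up to 1.41-fold higher for BT-20 and 1.49-fold higher for MDA-MB-468. KMO shares 1691 exon bases (28.4% of its own) with OPN3 on the opposite strand, and whether counting used the strand was not given in the sources used here. OPN3 was at 21.9, 30.5, 8.15 and 8.44 FPKM in the usual order of libraries, so the 4 near-equal KMO levels stood beside OPN3 levels that differed between the lines. The part of OPN3 reads in the KMO level was not tested.

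AFMID, the formamidase that releases kynurenine, was at 23.7 FPKM with control shRNA and 19.0 FPKM with QPRT shRNA in BT-20. It was at 24.2 and 28.4 FPKM in MDA-MB-468. The log2 fragment ratios were -0.32 (95% interval -0.62 to -0.02) and 0.23 (-0.04 to 0.50), and they differed by 0.55 (0.14 to 0.96) in counting error alone. Neither passed 2-fold.

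NADSYN1, the glutamine-dependent synthetase of the last step, was at 29.4 and 32.0 FPKM in BT-20 and at 74.0 and 74.6 FPKM in MDA-MB-468. Its log2 fragment ratio was 0.12 (95% interval -0.07 to 0.31) in BT-20 and 0.01 (-0.11 to 0.14) in MDA-MB-468. It was the member with the narrowest intervals around 0 in both lines. KYAT3, a kynurenine aminotransferase, was at 7.22 and 8.09 FPKM in BT-20 and at 35.1 and 28.2 FPKM in MDA-MB-468. Its log2 fragment ratios were 0.16 (-0.18 to 0.51) and -0.32 (-0.49 to -0.15), again under 2-fold. The fragment numbers of NADSYN1 and KYAT3 were not recovered as whole numbers, so their intervals are approximate.

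Of the 6 members tested, 2 (QPRT and KYNU) were past 2-fold for BT-20 and 1 (QPRT) for MDA-MB-468, beside 1.7% and 1.89% of all genes tested (244 and 271 of 14321). QPRT is the target, which leaves KYNU in BT-20 as the one other member past 2-fold within a line. The median difference of the 6 members was 0.07 for BT-20 and -0.09 for MDA-MB-468, against 0.05 and 0.01 over all genes tested.

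**Figure D2:**
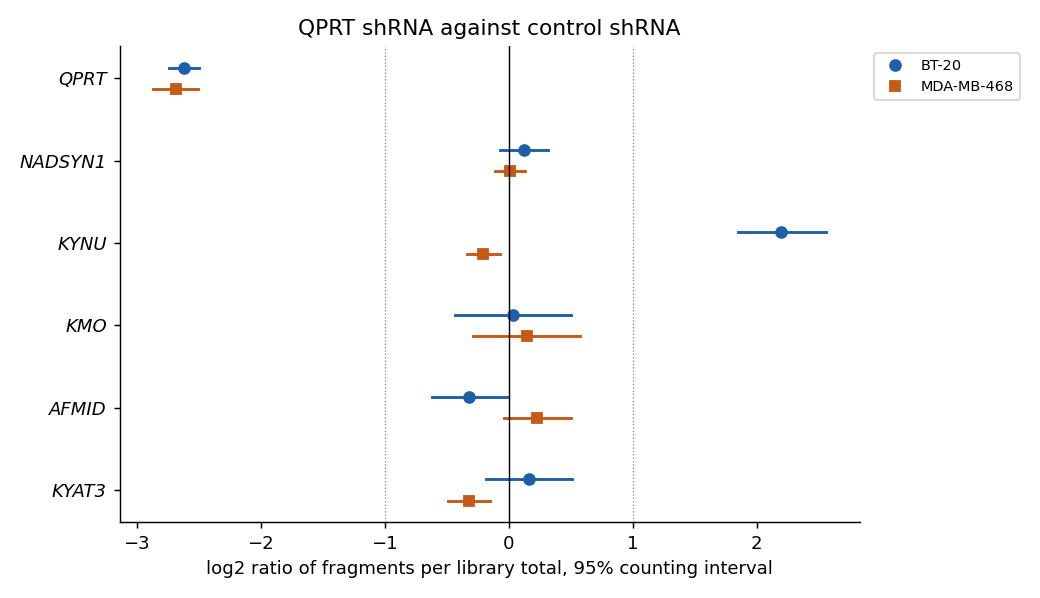
log2 ratio of fragments per library total, QPRT shRNA over control shRNA, for the 6 members tested; circles are BT-20, squares MDA-MB-468, bars the exact 95% counting intervals and dotted lines 2-fold. QPRT lies near -2.6 in both lines and KYNU at 2.20 in BT-20 against -0.20 in MDA-MB-468, while the other members lie between the dotted lines.

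Both lines were then fitted together with limma on log2(FPKM + 1), with line and shRNA as terms, so that the lines served as the only replicates of the shRNA and 1 residual degree of freedom was left. The shRNA term was called for 1 of the 6 members, QPRT (estimate -2.60 ± 0.20 SE, n = 2 lines per shRNA, Benjamini-Hochberg adjusted p = 1.42e-32), beside 0.628% of all genes. The call was lost, with the estimate still at -2.60, when no gene was filtered (limma, adjusted p = 0.650) and when the line was left out of the model (limma, adjusted p = 1.00). For KYNU the estimate was 0.84 ± 0.24 SE (limma, adjusted p = 0.0640), an average over a higher value in 1 line and a slightly lower value in the other. KMO, AFMID, NADSYN1 and KYAT3 had estimates between -0.08 and 0.08 (limma, adjusted p = 1.00 for each). With so few degrees of freedom the error of each gene was set mainly by the spread of the other genes, and the adjusted p-values of the shRNA term are less sure than their size says.

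**Figure D3:**
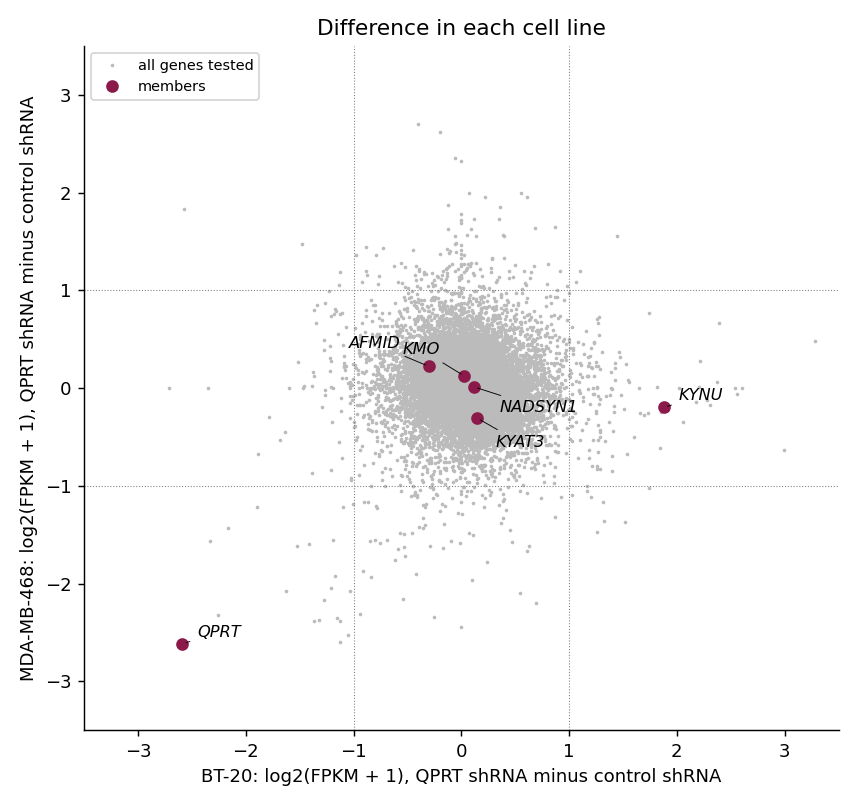
Difference of log2(FPKM + 1), QPRT shRNA minus control shRNA, in BT-20 (horizontal axis) and MDA-MB-468 (vertical axis) for the 14321 genes tested (grey) and the 6 members tested (dark red); dotted lines are 2-fold. QPRT lies in the lower left corner at -2.59 and -2.62, KYNU lies to the right at 1.88 and -0.20, and the other members lie within the central cloud.

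The third question was how the route differed between the lines. QPRT was higher in BT-20, whereas KYNU, NADSYN1 and KYAT3 were higher in MDA-MB-468 with either shRNA, and KMO was similar in level. With control shRNA, QPRT was at 117.3 FPKM for MDA-MB-468 and 248.6 FPKM for BT-20, a fragment ratio of 2.12-fold lower (95% interval 2.01 to 2.24). With QPRT shRNA it was 2.21-fold lower (1.92 to 2.55). The log2(FPKM + 1) difference with control shRNA, -1.08, was -0.92 and thus under 2-fold once the trend of the difference on GC content and length was removed.

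KYNU was 12.7-fold higher in MDA-MB-468 with control shRNA (95% interval 10.1 to 16.1) and 2.41-fold higher with QPRT shRNA (2.13 to 2.72). The smaller gap with QPRT shRNA came mostly from the higher BT-20 level, with a smaller share from MDA-MB-468, at 38.0 and 33.0 FPKM. KYAT3 was 4.87-fold higher in MDA-MB-468 with control shRNA (4.03 to 5.91) and 3.48-fold higher with QPRT shRNA (2.90 to 4.21). It shares 469 exon bases (20.3% of its own) with RBMXL1 on the same strand, which was at 4.49, 4.53, 9.95 and 14.8 FPKM, also higher in MDA-MB-468. The part of shared reads in the KYAT3 difference was not tested.

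NADSYN1 was 2.52-fold higher in MDA-MB-468 with control shRNA (2.25 to 2.82) and 2.33-fold higher with QPRT shRNA (2.09 to 2.61). AFMID gave a ratio of 1.02 (0.84 to 1.24) with control shRNA and 1.49 (1.22 to 1.83) with QPRT shRNA. For KMO the ratios were 1.13 (0.83 to 1.55) and 1.22 (0.90 to 1.67). Neither AFMID nor KMO passed 2-fold, although for AFMID the interval with QPRT shRNA did not include 1.

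Of the 6 members tested, 4 (QPRT, KYNU, NADSYN1 and KYAT3) were past 2-fold with control shRNA and the same 4 with QPRT shRNA, beside 31.6% and 31.4% of all genes tested. The median difference of the 6 was 0.73 and 0.88, against 0.12 and 0.07 over all genes. In limma the line term was called for these 4 of 6 members, beside 55.1% of all genes, so that a call between the lines was common in general. The estimates, MDA-MB-468 minus BT-20, were 2.25 ± 0.24 SE for KYNU (limma, adjusted p = 9.55e-20) and 1.91 ± 0.24 SE for KYAT3 (limma, adjusted p = 1.72e-14). They were 1.25 ± 0.21 SE for NADSYN1 (limma, adjusted p = 2.08e-08) and -1.09 ± 0.20 SE for QPRT (limma, adjusted p = 5.18e-07). AFMID (0.29, limma adjusted p = 0.273) and KMO (0.20, limma adjusted p = 0.563) were not called. The errors of the line term were likewise set mainly by the other genes, so its adjusted p-values are less sure than their size says. For KYNU the log2(FPKM + 1) difference was 3.29 with control shRNA but 1.21 with QPRT shRNA. With no gene filtered its line estimate stayed at 2.25 with an error of 0.52 SE (limma, adjusted p = 0.0481).

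**Figure D4:**
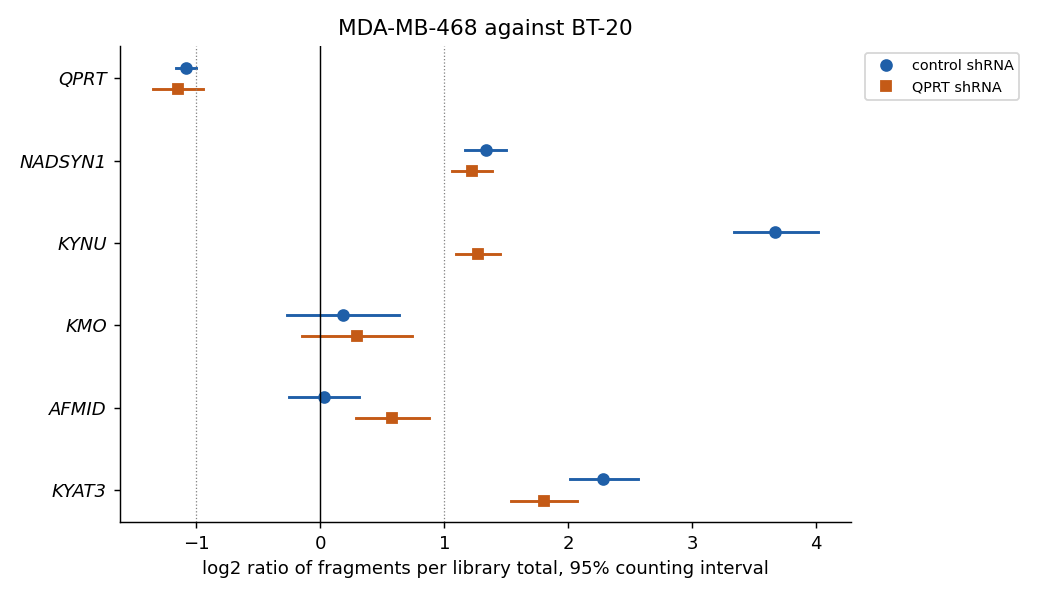
log2 ratio of fragments per library total, MDA-MB-468 over BT-20, for the 6 members tested; circles are control shRNA, squares QPRT shRNA, bars the exact 95% counting intervals and dotted lines 2-fold. QPRT lies near -1.1, NADSYN1, KYNU and KYAT3 lie above 1 with either shRNA, and KYNU is the member whose circle and square are farthest apart.

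Enzymes that work beside the members also differed between the lines. AADAT, an aminotransferase that like KYAT3 makes kynurenic acid, had 0 fragments in both BT-20 libraries and 148 and 118 in MDA-MB-468 (9.27 and 7.84 FPKM). Against the level of 3 fragments over both BT-20 libraries it was at least 89.8-fold higher in MDA-MB-468, before counting error in the MDA-MB-468 fragments, with which the exact 95% interval of the ratio started at 72.5. IDO2, a paralogue of IDO1, went the other way, with 0 fragments in both MDA-MB-468 libraries. By the same measure it was at least 9.55-fold higher in BT-20, and with counting error the exact 95% interval of the MDA-MB-468 to BT-20 ratio ended at 0.137. KYAT1 (5.43, 4.47, 5.60 and 3.87 FPKM) and GOT2 (134, 119, 115 and 127 FPKM) were close in all libraries. Of this list of other kynurenine enzymes 3 of 4 were tested, 0 were called for the shRNA and 1 (AADAT) was called higher in MDA-MB-468. Over all genes tested, limma called 30.7% higher and 24.4% lower in MDA-MB-468, and the counts of this and the following lists stand beside those shares. In these lists AADAT, NMNAT3, SLC43A1 and DDC passed the mean filter only through MDA-MB-468, where they were high, and NAPRT only through BT-20. The direction of their calls was thus set in part by the filter. IDO2, high in BT-20 only, did not pass it.

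Downstream of QPRT, the NMNAT enzyme with the highest level was NMNAT2 for BT-20 and NMNAT3 or NMNAT1 for MDA-MB-468. NMNAT2, the enzyme of the Golgi and axon, was at 22.1 and 30.5 FPKM in BT-20 and at 2.25 and 1.78 FPKM in MDA-MB-468. NMNAT3, known as the mitochondrial form, was at 0 and 0.0903 FPKM in BT-20 and at 9.09 and 7.45 FPKM in MDA-MB-468. The nuclear NMNAT1 was at 3.24 and 3.93 FPKM in BT-20 and at 7.07 and 9.32 FPKM in MDA-MB-468. NMNAT2 was thus higher in both BT-20 libraries, and NMNAT1 and NMNAT3 were higher in both MDA-MB-468 libraries.

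NAPRT makes NAMN from nicotinic acid and thus reaches the product of QPRT by the Preiss-Handler route. It was at 54.7 FPKM (648 fragments) and 46.6 FPKM (567 fragments) in BT-20, and at 1.15 FPKM (14 fragments) and 0.521 FPKM (6 fragments) in MDA-MB-468. In MDA-MB-468 it was lower by 47.7-fold with control shRNA (28.2 to 87.7) and by 89.4-fold with QPRT shRNA (40.8 to 245). Within the lines it was 1.17-fold lower with QPRT shRNA in BT-20 (1.05 to 1.32), and the 14 and 6 fragments of MDA-MB-468 could not resolve a difference. All 4 genes of this group were tested, 0 were called for the shRNA, and for the line 2 (NMNAT1 and NMNAT3) were called higher and 2 (NMNAT2 and NAPRT) lower in MDA-MB-468 by limma, with adjusted p of 9.08e-76 for NAPRT and 1.56e-32 for NMNAT2.

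**Figure D5:**
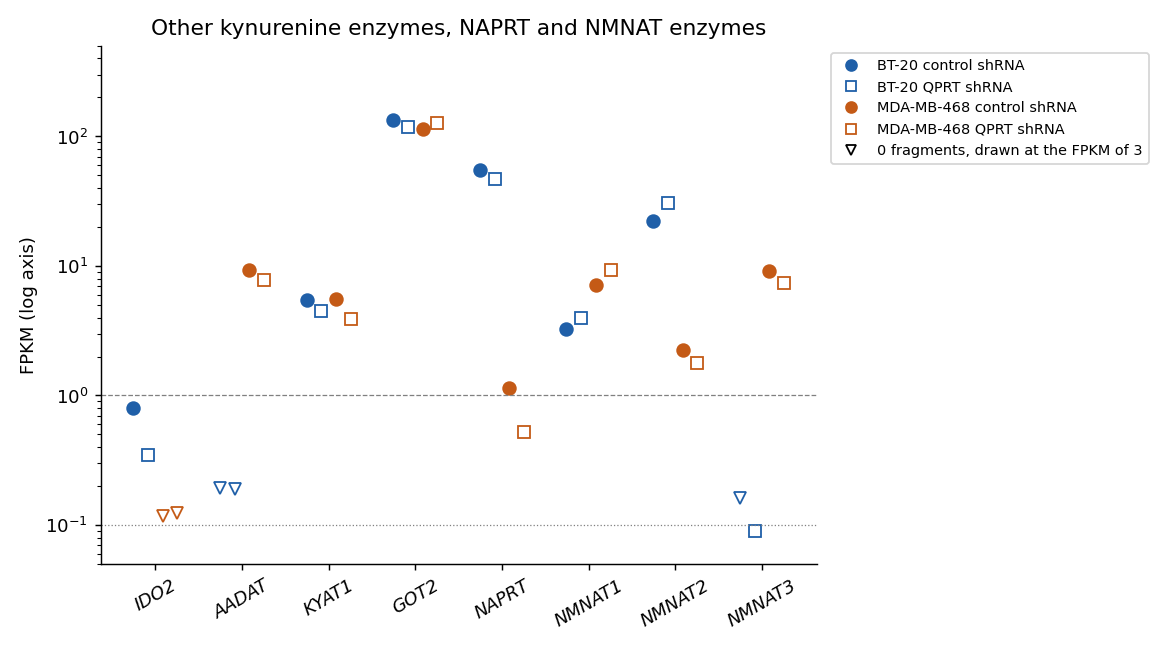
FPKM (log axis) of 4 further kynurenine enzymes, NAPRT and the 3 NMNAT enzymes in the 4 libraries, with symbols as in the plot of the members. AADAT and NMNAT3 are at or near 0 for BT-20 and above 7 FPKM for MDA-MB-468, while NAPRT lies at 46.6 FPKM or more in BT-20 and at 1.15 FPKM or less in MDA-MB-468.

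Genes around the route were examined as further lists. Of 7 genes for the kynurenine receptor AHR, its partner and its targets, 6 were tested and 0 were called for the shRNA by limma. AHR itself, a receptor that binds kynurenine and related indoles, was at 6.57 FPKM in BT-20 with control shRNA and 15.2 FPKM with QPRT shRNA. It was at 61.8 and 64.4 FPKM in MDA-MB-468. The fragment ratio in BT-20 was 2.31 (95% interval 1.95 to 2.74) and that in MDA-MB-468 was 1.04 (0.98 to 1.11), both approximate because the AHR fragments were not recovered as whole numbers. On the log2(FPKM + 1) scale AHR was the one gene of all 7 pathway lists, besides the members, past 2-fold with QPRT shRNA in either line among those tested. That scale understates changes of low genes, and by FPKM alone some low genes were past 2-fold lower. Among them, CYP1A1, a target of AHR, was at 2.60 and 0.994 FPKM in BT-20 (51 and 20 fragments) and at 2.23 and 2.94 FPKM in MDA-MB-468. The carrier SLC7A8 was at 1.85 and 0.765 FPKM in BT-20 and at 1.43 and 0.618 FPKM in MDA-MB-468. AHR was chosen for mention by its mean level, as were CYP1B1, ARNT and TIPARP.

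Of these, CYP1B1, a target of AHR, was at 35.5 and 51.6 FPKM in BT-20 and at 142 and 81.9 FPKM in MDA-MB-468. It thus was higher with QPRT shRNA for BT-20 and lower for MDA-MB-468, by less than 2-fold in each. TIPARP, another target, was at 27.9 and 24.7 FPKM in BT-20 and at 4.71 and 4.997 FPKM in MDA-MB-468. ARNT, the partner of AHR, lay between 19.0 and 25.7 FPKM in all libraries. For the line term limma called 2 genes of the list higher (AHR and CYP1B1) and 2 lower (AHRR and TIPARP) in MDA-MB-468.

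Signalling genes through which interferon gamma induces IDO1 were expressed in both lines, beside the 0 to 2 fragments of IDO1. IFNGR1, a chain of the receptor, was at 45.4, 66.1, 225 and 242 FPKM in the usual order of libraries. JAK1 lay between 121 and 154 FPKM, and IRF1 between 28.4 and 47.4 FPKM. Of the 6 genes 0 were called for the shRNA, beside 0.628% of all genes, and 3 (IFNGR1, IFNGR2 and IRF1) were called higher in MDA-MB-468, beside 30.7%.

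Tryptophan carriers and competing uses of tryptophan were expressed in part. Of 6 carriers, 4 to 6 were at 1 FPKM or more in a given library. Of 6 genes for competing uses, 2 were at that level in each BT-20 library and 3 in each MDA-MB-468 library. SLC3A2 (523, 439, 494 and 650 FPKM) and SLC7A5 (274, 233, 206 and 240 FPKM) form the large neutral amino acid carrier and were the highest of their list. Of its 6 genes 0 were called for the shRNA and 1 (SLC43A1) was called higher in MDA-MB-468. WARS1, which charges tRNA with tryptophan, was at 242, 179, 199 and 193 FPKM. Of 6 genes for competing uses 3 were tested, 0 were called for the shRNA, DDC was called higher and WARS2 lower in MDA-MB-468. DHTKD1, on the glutarate side of the ACMS branch, was at 49.5, 60.7, 69.8 and 56.0 FPKM and was not called for either term, while ALDH8A1 of that branch was too low to be tested.

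The genes whose profile over the 4 libraries lay nearest to that of QPRT were looked for among 10422 genes with a mean of at least 5 FPKM, by Euclidean distance between centred log2(FPKM + 1) values. The nearest was DRAM1 (distance 1.62; 29.4, 14.1, 22.1 and 9.13 FPKM), followed by PGC (1.71), SH3BGRL (1.76), TMEM250 (1.81) and SLC26A3 (1.85). None was close, since a gene with 4 equal values would lie at 2.82. PGC and SLC26A3 are genes of stomach and gut, so marker lists of those tissues were looked at. PGC is itself 1 of the gastric markers, so the gastric list is not independent of this search. The summed level of 8 intestinal markers was 12.9, 6.07, 35.4 and 8.35 FPKM, and that of 6 gastric markers 14.7, 4.11, 29.5 and 3.55 FPKM. That of 6 plasma cell markers was 32.5, 15.4, 76.3 and 15.9 FPKM. Each sum was lower with QPRT shRNA in both lines. For the shRNA term limma called 7 of these genes lower, beside 0.363% of all genes tested. They were 2 of 4 tested intestinal, 3 of 3 gastric and 2 of 3 plasma cell markers. The part of these markers in the member levels was not tested.

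Hepatocyte markers, for the cell type with most of the route, summed to 8.26, 7.62, 12.03 and 5.01 FPKM over 8 genes, dendritic cell markers to between 2.72 and 5.27 FPKM over 6 genes, and fibroblast markers to between 15.5 and 33.3 FPKM over 6 genes. The macrophage markers summed to 24.3 and 33.2 FPKM in MDA-MB-468, with 3 and 2 of 8 listed at 0. The epithelial markers summed to between 6330 and 9852 FPKM, most of it from KRT8, KRT18 and KRT19. Some of the other sums were near the levels of members. In MDA-MB-468 with QPRT shRNA the 33.2 FPKM of the macrophage markers stood beside 33.0 FPKM of KYNU. The part of such cells in the member levels was not tested.

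The members lie at different places of the genome, here in GRCh38 coordinates of GENCODE 29, and all are protein-coding. QPRT lies at 29679008 to 29698699 on chromosome 16 (plus strand). Of the 25 tested genes within 500 kb of it, 0 were past 2-fold with QPRT shRNA for BT-20 and 1 for MDA-MB-468. Over all genes tested, 1.7% and 1.89% were past 2-fold. The differences of the 25 genes ran from -0.74 to 0.31 for BT-20 and from -1.05 to 0.59 for MDA-MB-468. KYNU lies at 142877498 to 143055832 on chromosome 2 (plus strand) with 0 tested genes within 500 kb. HAAO (42767089 to 42792593, minus strand) and ACMSD (134838547 to 134902034, plus strand) are on chromosome 2 as well. KMO (241532134 to 241595642, plus strand) and KYAT3 (88935773 to 88992953, minus strand) are on chromosome 1, TDO2 (155854738 to 155920406, plus strand) on chromosome 4, IDO1 on chromosome 8, NADSYN1 (71453109 to 71524107, plus strand) on chromosome 11 and AFMID (78187317 to 78207701, plus strand) on chromosome 17.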

How the data were processed

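Libraries were made from 1 μg of total RNA with a TruSeq RNA kit and sequenced on an Illumina NovaSeq system. The submitters' processing notes name CASAVA, FastQC, MultiQC, TopHat2 2.0.12 and HTSeq 0.6.1; the genome build, the annotation and the strand setting were not given in the sources used here. The authors deposited 1 table of FPKM values for 50653 Ensembl genes in 4 libraries, with no counts and no replicates. The members and lists were chosen with earlier results of these data known.

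Fragments were recovered by multiplying FPKM by the mean GENCODE 29 transcript length and the library total. The total was itself inferred from the spacing of the FPKM values of genes with 1 transcript. The products were whole numbers within 0.02 for 86.4% to 86.7% of values above 0 (97.6% to 97.8% for genes with 1 transcript). The recovered fragments gave the fragment ratios, their intervals, the detection limits, the limit of 10 fragments and a limma-voom alternative. The 14321 genes whose FPKM averaged 1 or more were tested. Differences were taken on log2(FPKM + 1), which understates changes of low genes, and 2-fold was the threshold within pairs of single libraries, for which no test exists. The fit over all libraries used limma 3.58.1 (R 4.3.3) with trended empirical Bayes and Benjamini-Hochberg adjustment at 0.05. Nothing in the sources says that the cultures were replicated, so p-values rest on these 4 libraries alone. With 1 residual degree of freedom the error of a gene came mainly from the spread of the other genes.

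The limma step was run first on simulated counts with known changes; it recovered them but also called unchanged genes, for the shRNA term at a rate well above the nominal 0.05 and for the line term below it.

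All 10 members were named in every library. From each other pathway list up to 4 genes with the highest mean FPKM were named, with the 5 genes nearest QPRT in profile. Other genes named for a call (SLC43A1, IFNGR2, AHRR), CYP1A1 and SLC7A8, the receptors, and the neighbours and exon overlaps were chosen after their values were seen. Upstream sequences came from RefSeq, with 8 of the 10 members matched. Alternatives were another pseudocount, filter, fold, scaling, GC and length correction, and model terms. Intervals cover counting error only. The values of 1 gene of the interferon list are not reported here.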

Additional observations from a re-analysis of the deposited data

Results flagged for a closer look

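KYNU was flagged because its response to the QPRT shRNA differed between the 2 lines, past 2-fold higher in BT-20 and under 2-fold in MDA-MB-468. The difference on the log2(FPKM + 1) scale was 1.88 for BT-20 and -0.20 for MDA-MB-468. With 1 library per line and shRNA the difference between the lines was not tested over samples.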

How the results depend on the processing

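No paired analysis was possible because each group held 1 library and the groups shared fewer than 2 replicate numbers; the cell line, a term of the limma fit, was the only block. Leaving out a library removes a comparison. No result changed direction past its threshold under any alternative run. The number of genes past 2-fold was 792 for BT-20 and 756 for MDA-MB-468 with a pseudocount of 0.1, 370 and 417 with no filter, 103 and 96 with a mean of at least 5 FPKM, and 1286 and 1313 at 1.5-fold, against 244 and 271. Between the lines it was 2984 (control shRNA) and 2923 (QPRT shRNA) with a mean of at least 5 FPKM and 7754 and 7592 at 1.5-fold, against 4519 and 4491. For the shRNA term limma called 0 genes with no filter (807 at an unadjusted p under 0.05), 0 with no cell line block (17 at an unadjusted p under 0.05) and 45 at 5 FPKM, against 90. Members called for that term were 2 with a pseudocount of 0.1 (QPRT, and KYNU with limma adjusted p = 0.0298, range over alternatives 0.0298 to 1.00), and 0 both with no filter (QPRT, limma adjusted p = 0.650) and with no cell line block, where the line difference enters the error. Without the shRNA in the model the QPRT line difference had a limma adjusted p of 0.346. Silent members went from 1 in each line to 4 (BT-20) and 3 (MDA-MB-468) at 0.5 FPKM, and to 4 in each under 10 fragments. QPRT stayed between -2.61 and -2.51 in BT-20 and between -2.69 and -2.62 in MDA-MB-468, and KYNU between 1.64 and 2.16 in BT-20, over 7 settings each; removing the GC and length trend brought KYNU in MDA-MB-468 to -0.03 and its line difference with control shRNA from 3.29 to 2.93, and gave KMO, past 2-fold nowhere, values of -0.12 in place of 0.03 in BT-20 and of -0.13 in place of 0.15 between the control libraries. The cause of these shifts was not tested. At this depth, members under 1 FPKM rest on fewer than 10 fragments, so ratios between single libraries were not resolved for them.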
